A study of Homo sapiens with 8 samples.

Results

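The genes described here are 35 zinc finger genes of the 19q13.41 to 19q13.42 stretch of human chromosome 19, a tandem series that runs from ZNF577 to ZNF331. They were chosen by that position and by symbol, with the values of ZNF83 in TET1 knockdown cells already known, and each was represented by its transcript cluster with the highest mean. Of the 35 genes, 29 had a named transcript cluster, 1 per gene, among 53617 clusters with values, and 19 of the 29 passed a filter on low signal. ZNF28, ZNF468, ZNF816, ZNF525, ZNF761 and ZNF813 were not analysed here. The arrays came from HEK293T, a human embryonic kidney line with the SV40 large T antigen, and each of the 8 arrays was 1 RNA sample. Lentiviral shRNA cells gave 3 arrays, namely 1 clone with a control shRNA and 2 clones with different shRNAs against TET1, shTET1#1 and shTET1#2. Transfected cells gave 5 arrays, namely the empty vector, the wild-type catalytic domain of TET1 (TET1-CD), the wild-type full-length protein (TET1-FL), and a catalytic mutant of each, mTET1-CD and mTET1-FL. The labels place the sort of the transfected cells by fluorescence at 3 days after transfection. Every group except TET1 shRNA had 1 array, each shRNA line was 1 clone, and the labels name neither separate cultures nor a batch of hybridisation.

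Most genes of this stretch encode KRAB zinc finger proteins. Such a protein binds DNA through a row of C2H2 zinc fingers, and its KRAB domain recruits the co-repressor TRIM28, which brings histone methyltransferase and heterochromatin proteins to the site. Many of these proteins bind retrotransposons, and the genes multiplied by tandem duplication during primate evolution, so that neighbours are often close copies. TET1 oxidises 5-methylcytosine, which in promoters occurs at CpG sites.

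Promoter sequences are shown for ZNF83, the gene with the widest spread over the arrays, for ZNF701 and ZNF845, whose windows were the most alike, and for ZNF350 and ZNF614, from the stretch where signal with the TET1 plasmids was higher than with the vector. Each window runs from 250 bases before to 50 bases after a RefSeq start in GRCh38.p14, 5′ to 3′ on the gene's own strand, with every CpG in capitals. ZNF83 has 2 windows because RefSeq gives it 2 starts.
ZNF83, upstream start, chr19:52690447-52690746, minus strand: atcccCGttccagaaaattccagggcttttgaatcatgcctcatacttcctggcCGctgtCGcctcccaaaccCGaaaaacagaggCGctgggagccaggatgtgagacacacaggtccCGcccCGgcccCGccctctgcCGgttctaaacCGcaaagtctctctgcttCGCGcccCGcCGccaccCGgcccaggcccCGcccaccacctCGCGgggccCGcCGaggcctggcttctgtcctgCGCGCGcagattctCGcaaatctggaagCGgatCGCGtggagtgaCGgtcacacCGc
ZNF83, downstream start, chr19:52638306-52638605, minus strand: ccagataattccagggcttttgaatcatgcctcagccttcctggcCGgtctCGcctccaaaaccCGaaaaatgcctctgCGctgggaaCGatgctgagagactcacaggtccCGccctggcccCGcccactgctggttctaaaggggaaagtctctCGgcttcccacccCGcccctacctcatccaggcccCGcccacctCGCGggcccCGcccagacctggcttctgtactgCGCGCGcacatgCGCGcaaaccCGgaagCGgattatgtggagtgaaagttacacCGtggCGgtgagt
ZNF701, chr19:52570037-52570336, plus strand: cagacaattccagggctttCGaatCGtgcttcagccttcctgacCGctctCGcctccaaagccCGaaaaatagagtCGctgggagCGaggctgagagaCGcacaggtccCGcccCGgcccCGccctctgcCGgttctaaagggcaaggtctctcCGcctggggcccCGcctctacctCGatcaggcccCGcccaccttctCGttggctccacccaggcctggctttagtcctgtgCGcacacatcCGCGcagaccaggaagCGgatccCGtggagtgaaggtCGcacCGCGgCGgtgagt
ZNF845, chr19:53333499-53333798, plus strand: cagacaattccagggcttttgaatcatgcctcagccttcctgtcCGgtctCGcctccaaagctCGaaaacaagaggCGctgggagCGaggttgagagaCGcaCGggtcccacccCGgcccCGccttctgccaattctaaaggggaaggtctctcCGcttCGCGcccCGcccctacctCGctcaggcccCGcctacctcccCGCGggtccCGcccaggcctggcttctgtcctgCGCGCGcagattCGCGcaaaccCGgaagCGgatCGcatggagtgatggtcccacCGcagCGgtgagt
ZNF350, chr19:51986791-51987090, minus strand: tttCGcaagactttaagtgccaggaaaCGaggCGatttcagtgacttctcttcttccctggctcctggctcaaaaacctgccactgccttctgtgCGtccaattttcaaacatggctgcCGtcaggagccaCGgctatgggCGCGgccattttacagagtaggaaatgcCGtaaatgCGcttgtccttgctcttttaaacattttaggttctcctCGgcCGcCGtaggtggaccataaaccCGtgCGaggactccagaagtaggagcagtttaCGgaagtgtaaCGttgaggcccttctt
ZNF614, chr19:52028330-52028629, minus strand: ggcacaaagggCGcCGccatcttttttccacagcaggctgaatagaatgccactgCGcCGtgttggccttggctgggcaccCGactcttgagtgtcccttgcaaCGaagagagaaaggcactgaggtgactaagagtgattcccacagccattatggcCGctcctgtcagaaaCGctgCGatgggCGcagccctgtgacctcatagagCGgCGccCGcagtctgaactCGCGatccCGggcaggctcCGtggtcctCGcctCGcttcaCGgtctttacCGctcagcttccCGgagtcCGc

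The upstream ZNF83 window held 29 CpG sites and the downstream one 22. The ZNF701, ZNF845, ZNF614 and ZNF350 windows held 26, 28, 23 and 17. Promoter windows were found for 29 of the 35 genes, 41 windows in all, and 39 of these (95.1%) had at least 10 CpG sites, counted as CG. The share was 56.4% among all 35116 windows of the table, 93.4% among 61 windows of zinc finger genes of 19q13.12 and 19q13.31, and 65.2% among 23 windows of zinc finger genes of 19p12. A match to TATAAA on either strand was found in 1 of the 41 windows (2.4%), against 11.5% of all windows. The share was 3.3% for the zinc finger genes of 19q13.12 and 19q13.31 and 13.0% for those of 19p12.

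Several promoter windows resembled each other. In global alignments of 813 pairs of windows that do not overlap, identity had a median of 47.7%, and 65 pairs reached 60% or more, among 16 of the genes. The 2 most alike windows were those of ZNF701 and ZNF845, with 258 of 300 positions identical (86.0%). The ZNF845 window was at least 76.4% identical to windows of 9 other genes, of which ZNF701, ZNF83, ZNF611 and ZNF765 passed the signal filter. The 2 ZNF83 windows shared 77.2% of aligned positions. Whether probes for such related genes also read a neighbour's transcript was not tested, so values of single members of this family are uncertain to that extent.

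Values below are log2 signals as the authors deposited them, and differences are on the log2 scale, where 1 is 2-fold. Array medians lay between 5.47 and 5.55. The number of arrays limits the precision. TET1 itself, cluster 16705381, had signals of 9.29 (control clone), 8.62 (shTET1#1) and 9.14 (shTET1#2), and of 9.51 with the vector against 10.42 to 12.47 with the plasmids. On this cluster TET1-CD read 10.42, mTET1-CD 11.05, TET1-FL 12.22 and mTET1-FL 12.47, so each mutant lay above its wild-type partner. The second TET1 cluster, 16715048, stood at 5.86 with the vector against 11.80 to 12.10 with the plasmids. In the same order the plasmids read 12.10, 12.03, 11.80 and 11.91. This cluster had a signal of 6.20 with shTET1#2, above the 5.71 of the control clone, and the name “array labelled shTET1#2” is used for that sample. The 6 measured genes of 8 listed for HEK293T (PAX2, LIN28B, KRT8, KRT18, VIM and GATA3) lay above the array median on all 8 arrays. Of 5 measured markers of other cell types, ALB, CD14, PECAM1 and DCN lay below it on all 8 arrays, and APOA1 (6.02 to 6.48) above. In such bulk samples, fewer cells with a transcript and less of it per cell cannot be told apart.

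Across the 19 genes that passed the filter, the wild-type full-length array stood highest most often. TET1-FL was the highest of the 8 arrays for 9 of the 19 genes, whereas it was highest for 13.7% of the 28946 transcript clusters that passed the filter. The lowest array was the control clone for 7 genes and the array labelled shTET1#2 for 6, against 14.8% and 18.3% of all clusters. The median deviation from the gene's own mean, over the 19, was 0.28 with TET1-FL, 0.12 in shTET1#1, -0.32 in the control clone and -0.25 in the array labelled shTET1#2. Over all clusters these medians lay between -0.013 and 0.012 on every array. High TET1-FL and low control clone signals were not particular to this stretch. TET1-FL lay above the vector for 33 of 37 filtered genes of 19q13.12 and 19q13.31, 14 of 19 here and 8 of 14 of 19p12. The median differences were 0.56, 0.42 and 0.039. In the same order, 37 of 37, 17 of 19 and 11 of 14 genes were higher in shTET1#1 than in the control clone.

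**Figure D1:**
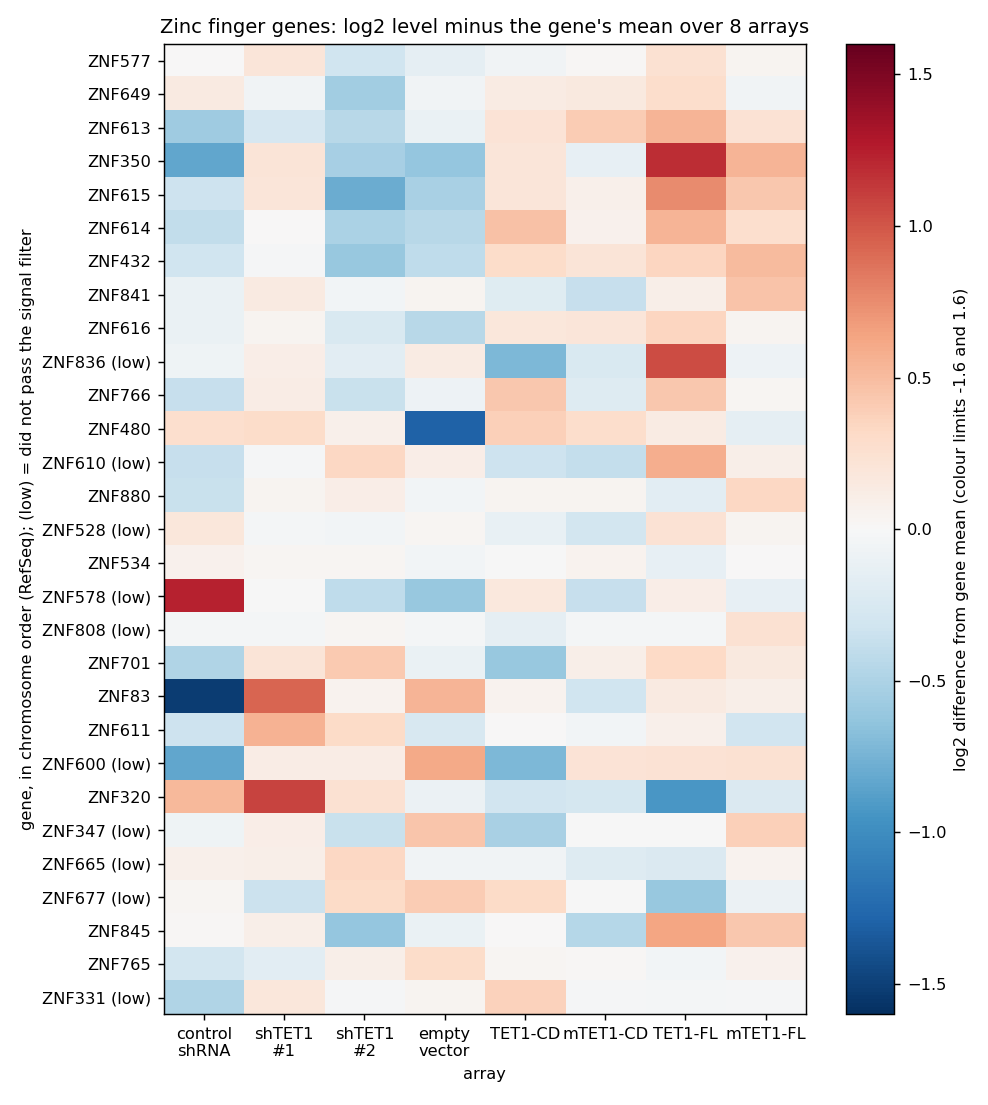
Log2 signal minus the gene's mean over the 8 arrays, for the 29 measured genes in chromosome order (rows) and the 8 arrays (columns), with red above and blue below the mean. The darkest blue cells are ZNF83 in the control clone and ZNF480 with the empty vector, and ZNF613 to ZNF432 are redder on the 4 TET1 plasmid arrays than on the control clone and vector arrays.

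ZNF83, a C2H2 zinc finger gene read by cluster 16875056, was the gene that drew attention to the group. It stood at 3.88 for the control clone, 6.32 for shTET1#1, 5.45 for the array labelled shTET1#2, 5.94 with the vector, 5.45 with TET1-CD, 5.07 with mTET1-CD, 5.54 with TET1-FL and 5.48 with mTET1-FL. One array was thus low and the other 7 lay between 5.07 and 6.32. The gap between the control clone and the next lowest array was 1.19. A control clone at least 2-fold below each of the other 7 arrays was found for 1 of the 19 genes, ZNF83, and for 0.228% of all clusters that passed the filter. Among zinc finger genes of other stretches of the chromosome it was found for 4 of 37 of 19q13.12 and 19q13.31 (ZNF345, ZNF527, ZNF568 and ZNF829) and for 2 of 14 of 19p12 (ZNF675 and ZNF681). Set against the control clone, ZNF83 was 2.44 higher in shTET1#1, 1.57 higher in the array labelled shTET1#2 and 2.06 higher with the vector, which carries no shRNA. With the vector as reference instead, the mean of the TET1 shRNA clones differed by -0.053. The control clone's value lay below the array median, and a background signal there could make these differences too small. ZNF83 lay above the array median only in shTET1#1, with the vector and with TET1-FL, and passed the filter through these arrays. The mean of the shRNA clones was the largest excess among the 19 genes, but the gene was chosen with that value known and no test is given.

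**Figure D2:**
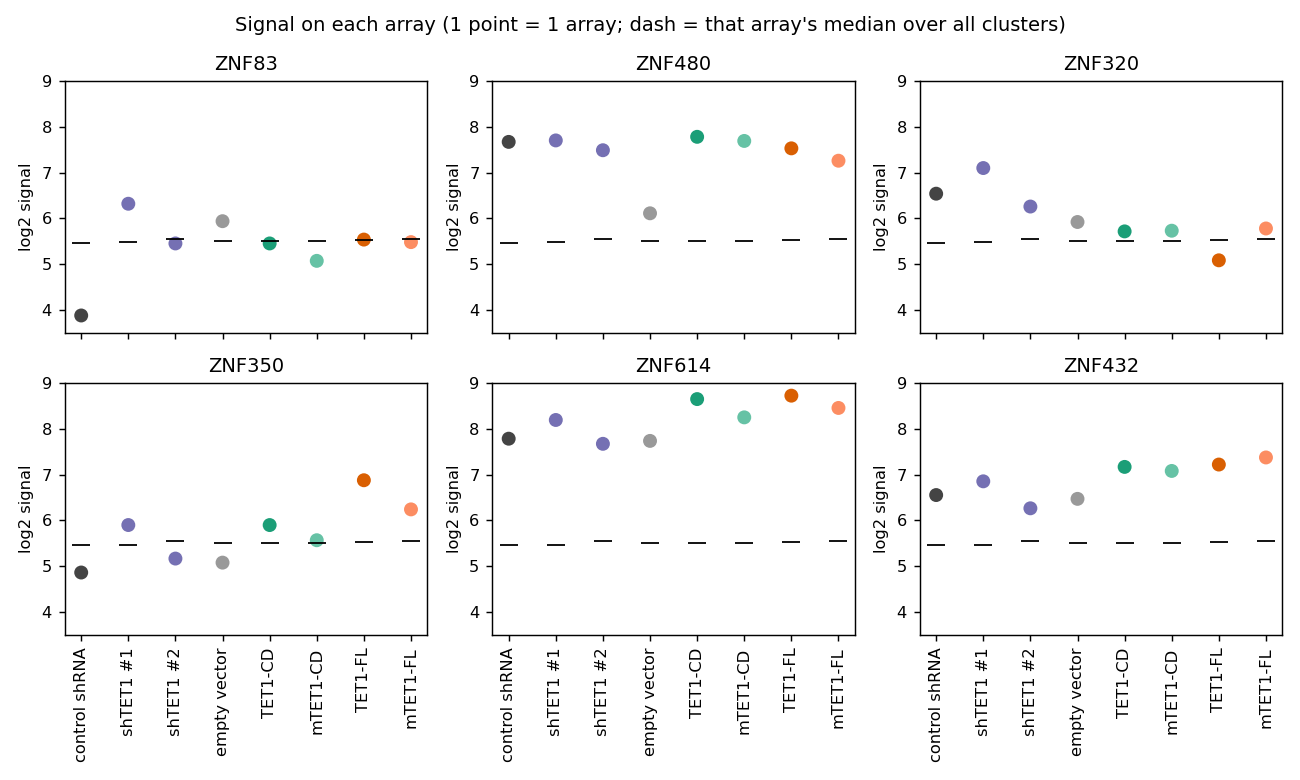
Log2 signal of 6 zinc finger genes on each of the 8 arrays, 1 point per array, with a dash at that array's median over all clusters. ZNF83 is low on the control clone array alone (3.88), ZNF480 is low on the empty vector array alone (6.11), and ZNF350, ZNF614 and ZNF432 lie higher on the 4 TET1 plasmid arrays than on the vector array.

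The first comparison set the TET1 shRNA clones against the control clone. It is a description throughout, because the genes were proposed with values of this contrast known. Apart from ZNF83, no gene of the 19 was at least 2-fold apart from the control in the same direction in both clones, so the count was 1 higher and 0 lower, against 0.432% and 0.383% of all clusters. ZNF701 followed ZNF83, with 4.90 for the control clone, 5.59 for shTET1#1 and 5.80 for the array labelled shTET1#2. On the other arrays it stood at 5.28 with the vector, 4.77 and 5.48 with TET1-CD and mTET1-CD, and 5.70 and 5.54 with TET1-FL and mTET1-FL. TET1-CD and the control clone were its lowest arrays. ZNF701 lay above the array median only in shTET1#1, in the array labelled shTET1#2 and with TET1-FL. It thus passed the filter through arrays that include both TET1 shRNA clones, and its control clone signal was a low one.

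ZNF611, whose protein binds SVA retrotransposons, came next. It stood at 6.17 for the control clone, 7.06 for shTET1#1 and 6.80 for the array labelled shTET1#2. Both clones lay above the vector (6.24) and above the plasmids (6.51 and 6.46 with TET1-CD and its mutant, 6.58 and 6.19 with TET1-FL and its mutant). For ZNF611 the vector thus stood near the control clone, 0.073 above it, which was not so for ZNF83.

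On the lower side stood ZNF649, whose protein binds L1 retrotransposons. It read 7.55 for the control clone, 7.35 for shTET1#1, 6.85 for the array labelled shTET1#2 and 7.35 with the vector, and 7.54, 7.57, 7.68 and 7.35 with the plasmids in the order TET1-CD, mTET1-CD, TET1-FL, mTET1-FL. The array labelled shTET1#2 was the lowest, 0.50 below the next. ZNF845 stood at 7.01 for the control clone, 7.09 for shTET1#1 and 6.37 for the array labelled shTET1#2, so that its 2 clones lay on opposite sides of the control.

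The clones also differed from each other. Signal was higher in shTET1#1 than in the array labelled shTET1#2 for 15 of the 19 genes, against 54.4% of all clusters, with a median difference of 0.48 against 0.035. All 10 filtered genes from ZNF577 to ZNF766 were among the 15. The largest such difference was 0.99, for ZNF615. Other zinc finger genes of the chromosome differed the same way, with 36 of 37 filtered genes of 19q13.12 and 19q13.31 and 12 of 14 of 19p12 higher in shTET1#1. Their medians were 0.58 and 0.36. Against the control clone, 17 of 19 genes were higher in shTET1#1 and 9 of 19 in the array labelled shTET1#2, against 50.0% and 44.6% of all clusters, with medians of 0.31 and -0.031. Both clones were above the control for 9 genes and below it for 2, against 29.4% and 34.8% of all clusters.

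**Figure D3:**
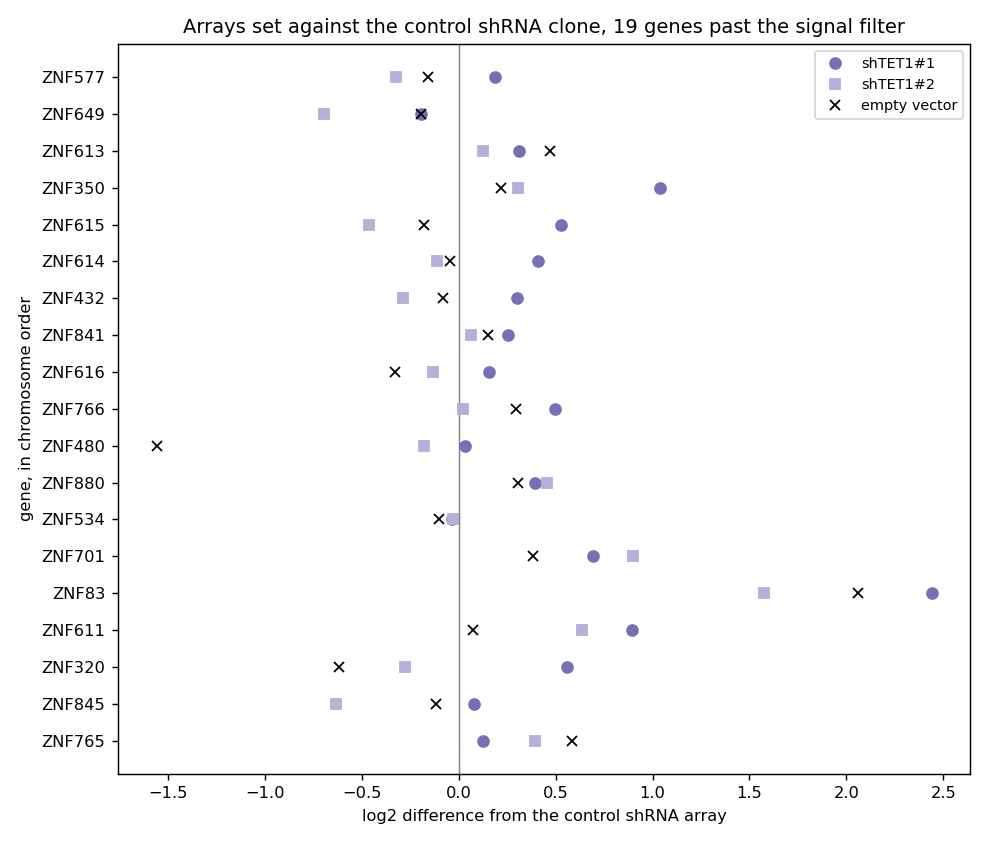
Log2 difference from the control shRNA clone for the 19 genes past the signal filter, in chromosome order, with 1 symbol each for shTET1#1, the array labelled shTET1#2 and the empty vector. For ZNF83 all 3 lie between 1.57 and 2.44, ZNF480 has the vector alone at -1.56, and shTET1#1 lies to the right of the array labelled shTET1#2 for 15 genes.

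The vector and control clone arrays, the references of the other comparisons, were set side by side, 1 array each and without a test. They differ in transfection, sorting and lentivirus as well, and these cannot be told apart. The differences of the vector and of the TET1 shRNA clones share the control clone array, and those of the plasmids share the vector array. Of the 19 genes, 9 were higher with the vector, against 50.8% of all clusters. ZNF83 was at least 2-fold higher with the vector and ZNF480 at least 2-fold lower, against 2.09% and 2.46% of all clusters in those directions. After ZNF83, the highest were ZNF765 (0.58), which also binds L1 retrotransposons, and ZNF613 (0.47), and the lowest after ZNF480 were ZNF320 (-0.62) and ZNF616 (-0.33).

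ZNF480, cluster 16864819, had the pattern of ZNF83 on a different array. It stood at 7.67 for the control clone, 7.70 for shTET1#1, 7.49 for the array labelled shTET1#2, 6.11 with the vector, 7.78 with TET1-CD, 7.69 with mTET1-CD, 7.53 with TET1-FL and 7.26 with mTET1-FL. The vector alone was low, by 1.15 from the next array, while the other 7 lay between 7.26 and 7.78. ZNF83 and ZNF480 were the 2 of 19 genes with 1 array at least 2-fold below each of the other 7, a pattern found in 0.611% of all clusters and, with the vector as the low array, in 0.0864%. ZNF83 was among the genes with its knockdown values already known, so this count is a description and was not tested.

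The second comparison asked what supplying TET1 protein of any form changed, with the mean of the 4 plasmids set against the vector and tested in limma with Benjamini-Hochberg adjustment over all 28946 clusters. None of the 19 genes passed an adjusted p of 0.05, and neither did any other cluster (0%), although 5 of the 19 had an unadjusted limma p under 0.05, all of them higher, against 15.0% of all clusters in either direction and 8.78% higher. These 5 were ZNF480, ZNF350, ZNF614, ZNF616 and ZNF432. The count was 1 or 2 when the arrays of either construct, the mutants or the wild-type arrays were left out. ZNF480 had the largest difference, 1.45 ± 0.16 (SE), and the lowest adjusted p of the group (limma adjusted p = 0.162). That difference rests on the single low vector array described above, since the plasmids (7.26 to 7.78) overlapped the 3 shRNA arrays (7.49 to 7.70).

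The other 4 lie in the first part of the stretch. Both the control clone and the vector lay below all 4 TET1 plasmids for 6 of the 19 genes, against 13.9% of all clusters. These 6 lie in the run from ZNF613 to ZNF616, where ZNF841 is the exception. The ends of that run were set after the values were seen, so the run is a description. ZNF350 encodes ZBRK1, a repressor that works with BRCA1. It stood at 4.86 for the control clone, 5.90 for shTET1#1, 5.17 for the array labelled shTET1#2, 5.08 with the vector, 5.90 with TET1-CD, 5.57 with mTET1-CD, 6.88 with TET1-FL and 6.24 with mTET1-FL. Both full-length arrays were above every other array, and shTET1#1 stood level with TET1-CD. Only the 4 plasmid arrays and shTET1#1 lay above the array median. ZNF350 thus passed the filter through arrays where it was high, and its vector signal was a low one. Its fitted difference from the vector was 1.07 ± 0.30 (SE, limma adjusted p = 0.246), and it was 0.65 without the full-length arrays and 1.48 without the catalytic-domain arrays.

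ZNF614 stood at 7.79 for the control clone, 8.20 for shTET1#1, 7.67 for the array labelled shTET1#2, 7.74 with the vector, 8.65 with TET1-CD, 8.25 with mTET1-CD, 8.73 with TET1-FL and 8.46 with mTET1-FL. All 4 plasmids lay above all 4 other arrays, the nearest being mTET1-CD and shTET1#1. The fitted difference was 0.78 ± 0.23 (SE, limma adjusted p = 0.254). ZNF432 read 6.56, 6.86, 6.27 and 6.47 in the control clone, shTET1#1, the array labelled shTET1#2 and the vector, and 7.17, 7.08, 7.22 and 7.38 with the plasmids in the order TET1-CD, mTET1-CD, TET1-FL, mTET1-FL. The 2 sets did not overlap, and the difference from the vector was 0.74 ± 0.26 (SE, limma adjusted p = 0.299).

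ZNF615 stood at 6.09 for the control clone, 6.62 for shTET1#1, 5.63 for the array labelled shTET1#2, 5.91 with the vector, 6.62 with TET1-CD, 6.51 with mTET1-CD, 7.19 with TET1-FL and 6.86 with mTET1-FL. Here shTET1#1 lay among the plasmid arrays. Its difference from the vector was 0.88 ± 0.38 (SE, limma adjusted p = 0.372). ZNF616 read 5.79, 5.95, 5.66 and 5.46 in the control clone, shTET1#1, the array labelled shTET1#2 and the vector, and 6.08, 6.09, 6.25 and 5.94 with the plasmids in the order TET1-CD, mTET1-CD, TET1-FL, mTET1-FL. The vector was its lowest array, and mTET1-FL lay level with shTET1#1. ZNF613 read 5.24, 5.55, 5.37 and 5.71 on the first 4 of these arrays and 6.04, 6.22, 6.35 and 6.05 with the plasmids. All 4 plasmids lay above all 4 other arrays. ZNF616 and ZNF613 differed from the vector by 0.63 ± 0.19 and 0.45 ± 0.19 (SE, limma adjusted p = 0.255 and 0.367). The 10 filtered genes from ZNF577 to ZNF766 had a median difference of 0.54, with 9 of them above 0, while the 9 from ZNF480 to ZNF331 had a median of 0.092, with 6 above 0. This division of the stretch was made after the values were seen.

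**Figure D4:**
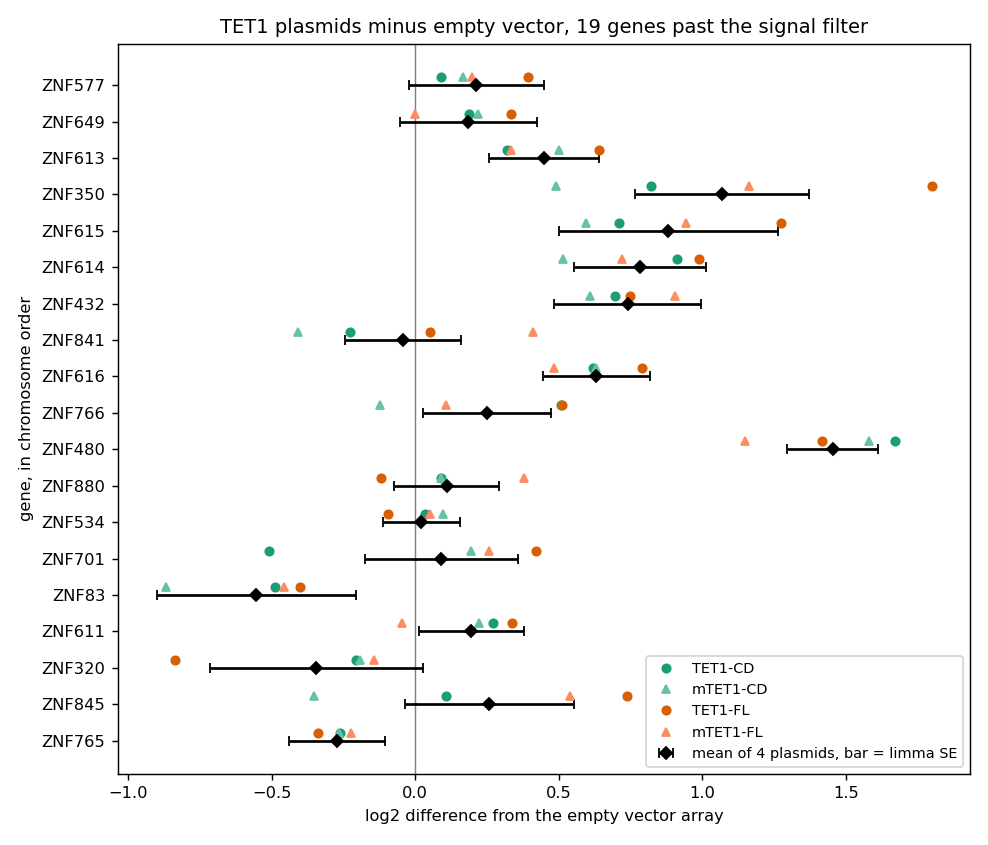
Log2 difference from the empty vector array for the 19 genes past the signal filter, in chromosome order, with each of the 4 TET1 plasmid arrays as a coloured point and the fitted mean with its limma SE as a black diamond and bar. All 4 points lie above 0 for ZNF577, from ZNF613 to ZNF432 and for ZNF616 and ZNF480, and all 4 lie below 0 for ZNF83, ZNF320 and ZNF765.

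Over all 19 genes, 15 had a fitted difference above 0, against 50.2% of all clusters, and the median was 0.21 against 0.0014. All 4 plasmids lay above the vector for 8 genes and below it for 3, against 27.2% and 28.4% of all clusters. Over the 29 measured genes the median was 0.092, with 18 above 0. The lowest were ZNF83 (-0.55 ± 0.35), ZNF320 (-0.34 ± 0.37) and ZNF765 (-0.27 ± 0.17, all SE, limma adjusted p = 0.522, 0.74 and 0.509). ZNF320 stood at 6.54 for the control clone, 7.10 for shTET1#1, 6.26 for the array labelled shTET1#2, 5.92 with the vector, 5.72 with TET1-CD, 5.73 with mTET1-CD, 5.08 with TET1-FL and 5.78 with mTET1-FL. It was the 1 gene of the 19 with all 3 shRNA arrays above all 5 others, found in 7.67% of all clusters. In 1 other gene, ZNF613, all 3 lay below, found in 8.18%. ZNF765 read 5.47, 5.59, 5.86 and 6.05 in the control clone, shTET1#1, the array labelled shTET1#2 and the vector, and 5.79, 5.79, 5.71 and 5.83 with TET1-CD, its mutant, TET1-FL and its mutant, a range of 0.58 over all arrays.

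ZNF83, ZNF701, ZNF611, ZNF765 and ZNF845, whose promoter windows were among the most alike, had the control clone as the lowest array in 3 cases (ZNF83, ZNF611 and ZNF765) and as the second lowest for ZNF701, after TET1-CD. For ZNF845 the lowest was the array labelled shTET1#2. The control clone was the lowest array for 7 of all 19 genes and for 14.8% of all clusters. Its gap to the next array was 0.027 for ZNF611 and 0.12 for ZNF765, and ZNF83 was chosen with its control value known. Whether this goes with likeness of promoters was not tested. Fitted differences between plasmids and vector were -0.55 for ZNF83, 0.092 for ZNF701, 0.20 for ZNF611, -0.27 for ZNF765 and 0.26 for ZNF845.

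The third comparison set wild-type against mutant plasmids, to ask what the enzyme activity of TET1 adds. TET1 signal on cluster 16705381 was also higher with each mutant than with its wild-type partner. Such a difference cannot be told apart here from the loss of activity. None of the 19 genes passed (0%, limma adjusted p = 1 for each), and 1, ZNF766, had an unadjusted limma p under 0.05, against 1.96% of all clusters in either direction and 1.04% higher. That count fell to 0 with arrays centred on their medians, without the filter and without the arrays of either construct. Of the 19, 12 had a fitted difference above 0, against 50.9% of all clusters. ZNF766 stood at 7.50 with TET1-CD and 7.50 with TET1-FL, against 6.87 and 7.10 with the mutants, a difference of 0.52 ± 0.20 (SE). Both wild-type arrays were above all 6 others, which read 6.70 for the control clone, 7.20 for shTET1#1, 6.72 for the array labelled shTET1#2 and 6.99 with the vector besides the 2 mutants. ZNF350 followed at 0.48 ± 0.27 (SE), with 0.33 in the catalytic-domain pair and 0.64 in the full-length pair, and ZNF614 at 0.33 ± 0.21 (SE), with 0.40 and 0.27.

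The lowest were ZNF320 (-0.36 ± 0.33), ZNF701 (-0.27 ± 0.24) and ZNF880 (-0.25 ± 0.16, all SE). In each, 1 pair of arrays carried most of the difference. ZNF320 differed by -0.70 in the full-length pair and -0.015 in the catalytic-domain pair. ZNF880 read 6.15, 6.55, 6.61 and 6.46 in the control clone, shTET1#1, the array labelled shTET1#2 and the vector, 6.55 and 6.55 with TET1-CD and mTET1-CD, and 6.34 and 6.84 with TET1-FL and mTET1-FL. Its catalytic-domain pair was equal, and its full-length pair differed by -0.50. ZNF701 differed by -0.70 in the catalytic-domain pair and by 0.16 in the full-length pair. Signal was higher with the wild-type protein in both pairs for 8 of the 19 genes and lower in both for 2, against 25.0% and 26.2% of all clusters. The median was 0.15 against 0.0027 over all clusters, and it was 0.048 in the catalytic-domain pair and 0.20 in the full-length pair.

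The fourth comparison set the full-length against the catalytic-domain constructs, which is also the test of whether the difference from the vector depends on the construct. None of the 19 genes passed (0%), and 3, ZNF350, ZNF841 and ZNF845, had an unadjusted limma p under 0.05, all higher, against 13.7% of all clusters in either direction and 8.86% higher. Of the 19, 13 had a fitted difference above 0, against 50.7% of all clusters. The count of 3 was 1 without the mutant arrays and 1 without the wild-type arrays. The fitted differences were 0.83 ± 0.27, 0.55 ± 0.18 and 0.76 ± 0.26 (SE, limma adjusted p = 0.3, 0.3 and 0.321). ZNF845 stood at 7.63 and 7.43 with TET1-FL and mTET1-FL, and at 7.00 and 6.54 with TET1-CD and mTET1-CD. The vector stood at 6.89, and the shRNA arrays lay between 6.37 and 7.09, so both full-length arrays were above all 6 others.

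ZNF841 stood at 8.47 and 8.84 with TET1-FL and mTET1-FL, at 8.20 and 8.02 with TET1-CD and mTET1-CD, and at 8.42 with the vector. It read 8.28 for the control clone, 8.53 for shTET1#1 and 8.34 for the array labelled shTET1#2, between the constructs or above TET1-FL. The lowest differences were those of ZNF480 (-0.34 ± 0.14), ZNF320 (-0.29 ± 0.33) and ZNF611 (-0.10 ± 0.16, all SE, limma adjusted p = 0.397, 0.783 and 0.865). The differences of ZNF320 and ZNF611 turned with the arrays used, to 0.049 for ZNF320 in the mutant pair and 0.069 for ZNF611 in the wild-type pair. Both full-length arrays lay above both catalytic-domain arrays for 8 of the 19 genes and below both for 1, ZNF480, against 27.6% and 25.7% of all clusters. The median was 0.11 against 0.0031 over all clusters.

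Of the remaining filtered genes, ZNF534 varied least. Its signal ranged over 0.20, from 6.00 with TET1-FL to 6.20 in the control clone. ZNF577 lay between 6.51 and 7.06, and ZNF880 between 6.15 in the control clone and 6.84 with mTET1-FL. Their differences from the vector were 0.022 ± 0.13, 0.21 ± 0.24 and 0.11 ± 0.18 (SE, limma adjusted p = 0.97, 0.75 and 0.848).

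The 10 measured genes that did not pass the filter had signals near or below the array medians. Of these, 9, namely ZNF610, ZNF528, ZNF578, ZNF808, ZNF600, ZNF347, ZNF665, ZNF677 and ZNF331, lay below the median on every array. ZNF836 exceeded it on 1, at 5.65 with TET1-FL against 3.89 to 4.74 on the other 7. ZNF578 read 4.16 in the control clone against 2.32 to 3.10 on the others, the reverse of ZNF83. ZNF600 was lowest in the control clone (3.32) and highest with the vector (4.74). ZNF331, a gene imprinted in some tissues, lay between 4.50 in the control clone and 5.35 with TET1-CD. ZNF808, whose loss disturbs development of the pancreas, ranged over 0.39. At these levels background may limit the reading, and no difference was tested.

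The co-repressor machinery on which KRAB proteins depend was read from 23 listed genes, of which 20 were measured and passed the filter, SETDB1 not being among them. None of the 20 passed the limma threshold for plasmids minus vector, wild-type minus mutant or full-length minus catalytic domain, in which 2 (higher), 0 and 2 (lower) of 20 had an unadjusted p under 0.05, against 15.0%, 1.96% and 13.7% of all clusters. TRIM28 itself differed by 0.064 ± 0.18 between plasmids and vector, by -0.061 ± 0.16 between wild-type and mutant and by -0.10 ± 0.16 between constructs (SE, limma adjusted p = 0.919, 1 and 0.855). The largest differences were those of the H3.3 chaperone gene DAXX (0.61 ± 0.16, plasmids minus vector, limma adjusted p = 0.236), the methyltransferase gene DNMT3B (0.28 ± 0.12, wild-type minus mutant, limma adjusted p = 1) and UHRF1, which recruits DNMT1 (-0.49 ± 0.15, full-length minus catalytic domain, limma adjusted p = 0.287). Of the 20, 4 were above 0 in the last, against 50.7% of all clusters, with a median of -0.17. Against the control clone the largest was the chromatin remodeller gene ATRX, at a mean of -0.67, which came mainly from shTET1#1. ATRX read 8.46 (control clone), 7.27 (shTET1#1) and 8.30 (array labelled shTET1#2).

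The zinc finger genes of 2 other groups on the chromosome were read side by side, without a test of the difference between lists. Of 37 filtered genes of 19q13.12 and 19q13.31, 37 were higher in shTET1#1 than in the control clone and 34 higher with the vector, against 50.0% and 50.8% of all clusters, with medians of 0.83 and 0.60. For the 19 genes of 19q13.4 those medians were 0.31 and -0.048 (0.073 for the vector over all 29 measured), and for 14 genes of 19p12 they were 0.20 and 0.13. The difference between plasmids and vector had medians of 0.37, 0.21 and 0.20 in the same order, and of 0.34, 0.092 and -0.027 over all measured genes, 47, 29 and 29 in number. The wild-type minus mutant difference had medians of 0.16, 0.15 and 0.051. It was above 0 for 33 of 37, 12 of 19 and 9 of 14 genes, against 50.9% of all clusters. The full-length minus catalytic-domain difference had medians of 0.23, 0.11 and -0.24. None of these genes passed the threshold in limma, in which 8, 5 and 2 had an unadjusted p under 0.05 for plasmids minus vector, 1, 1 and 0 for wild-type minus mutant, and 6, 3 and 2 for full-length minus catalytic domain, of 37, 19 and 14 genes. The shares over all clusters were 15.0%, 1.96% and 13.7%. The largest differences from the control clone were those of ZNF527 (2.33) in 19q13.12 and 19q13.31, ZNF83 (2.01) in 19q13.4 and ZNF681 (2.28) in 19p12. For plasmids minus vector they were ZNF230 (1.54), ZNF480 (1.45) and ZNF430 (1.19). For wild-type minus mutant they were ZNF585B (0.71), ZNF766 (0.52) and ZNF429 (-0.51), and for construct ZNF345 (0.95), ZNF350 (0.83) and ZNF429 (-0.84).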

How the data were processed

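Signals of 8 Affymetrix arrays were deposited by the authors as log2 values per transcript cluster. Per the submitters' processing notes, the tools were Expression Console 1.3.1 (Affymetrix) and RMA, a method of background correction, quantile normalization and probe summary. The genome build is not given in the sources used here. Of 53981 rows, 364 held no value. Gene names came from the platform annotation (16098 clusters) and were checked by gene number against RefSeq (GRCh38.p14), which changed 0 of them and gave the order of genes. Clusters above the array median on at least 2 of 8 arrays were kept (28946).

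A single model of all 8 arrays was fitted with limma 3.58.1 (lmFit, eBayes; R 4.3.3), with a term for each of control shRNA, TET1 shRNA, vector, mutant plasmids and wild-type plasmids, and 1 for the construct. It left 2 residual degrees of freedom. How far the shTET1#1 and shTET1#2 arrays lay apart gave 1, and how the wild-type minus mutant difference changed with the construct gave 1. To that spread eBayes added a prior drawn from all kept clusters, with 2.89 degrees of freedom and an SD of 0.154. The p-values rest on both and do not measure the spread of replicate cultures. The p-values were adjusted by Benjamini-Hochberg over the kept clusters, with 0.05 as threshold. Knockdown and single-array differences got no test. The fit was tested on simulated data. The members and lists were chosen with earlier results of these data known. All members are named, with values by array for the 3 highest and 3 lowest in each comparison. Promoter windows came from RefSeq (GRCh38.p14), aligned with match 1, mismatch -1, gap opening -3 and extension -1. Alternatives were other scalings, no filter, other transcript cluster rules and subsets of arrays.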

Additional observations from a re-analysis of the deposited data

Results flagged for a closer look

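ZNF613 was flagged because the wild-type minus mutant difference had opposite signs in the 2 constructs, each beyond the fitted SD of that gene. It was -0.18 in the catalytic-domain pair and 0.31 in the full-length pair, 1 array on each side, and the difference between the constructs was not tested. That SD is of a single array, so a difference between arrays varies more than it. The SD is also computed in part from these same values.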

How the results depend on the processing

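No paired analysis was possible because every group but TET1 shRNA had 1 array. The counts of members past the limma threshold for plasmids minus vector, wild-type minus mutant and full-length minus catalytic domain were 0 under each alternative run. Without the filter on low signal the median over members was 0.092 for plasmids minus vector, that for vector minus control clone turned from -0.048 to 0.073, 2 genes in place of 1 were at least 2-fold from the control in both TET1 shRNA clones, and 4 in place of 2 were 2-fold apart between vector and control clone. The full-length minus catalytic-domain median was 0.089 with arrays centred on their medians, 0.096 with cyclic loess, 0.14 without the filter, 0.084 without the mutant arrays and 0.063 without the wild-type arrays, against 0.11. The wild-type minus mutant median was 0.048 without the full-length arrays and 0.20 without the catalytic-domain arrays, against 0.15. Leaving out 1 TET1 shRNA clone gave 1 to 2 genes at least 2-fold from the control, with medians of -0.031 and 0.31. With the vector as reference instead, ZNF83 changed from 2.01 to -0.053. Averaging clusters per symbol changed no member, since each had 1. Centring moved the median of all clusters for the array labelled shTET1#2 minus the control from -0.031 to -0.12. Members at an unadjusted limma p under 0.05 numbered 1 to 7 for plasmids minus vector, 0 to 3 for wild-type minus mutant and 1 to 5 for full-length minus catalytic domain, against 5, 1 and 3. The lowest adjusted p of any member for plasmids minus vector was between 0.0706 and 0.755 over the alternatives, against 0.162. Low signal limits what can be read for the 10 of 29 members left out by the filter and for ZNF83 and ZNF701, above the array median on 3 arrays each. It also limits ZNF350, above the median on 5 arrays, namely the 4 TET1 plasmids and shTET1#1.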
